A study of Mus musculus with 6 samples.

Results

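The genes described here code for the proteins of the cytosolic ribosome. They were taken by symbol: Rpl or Rps followed by a number, together with Rpsa, Rplp0, Rplp1 and Rplp2, leaving out the Rps6k kinases and pseudogenes. A gene counted as a member where at least 1 probe set (a set of short probes on the array) was annotated to it alone, and it was represented by the brightest of these over all arrays. This gave 48 members among 12393 measured genes: 20 of the large subunit, 2 of the stalk, 20 of the small subunit and 6 paralogs. Another 30 genes with such symbols were read only by probe sets shared with other annotated genes, and are no members. The arrays came from livers of 3 PiZ transgenic mice and 3 wild-type mice, all 6 weeks old and on a C57BL/6 background. The PiZ transgene is the human gene of a variant alpha-1 antitrypsin, a secreted protease inhibitor that in its Z form misfolds and collects in the endoplasmic reticulum of hepatocytes. The labels give neither the promoter of the transgene nor the sex of the animals. Each array was 1 biological replicate, and values are log2 intensities.

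The cytosolic ribosome has a small subunit, which reads the mRNA, and a large subunit, which joins amino acids. A flexible stalk on the large subunit recruits the elongation factors. The messages of its proteins are among the most abundant of a hepatocyte. Many begin with a C and a run of pyrimidines, the 5′ terminal oligopyrimidine tract, through which mTORC1 controls their translation. A few ribosomal proteins have a paralog, a second gene of similar sequence that is often made in particular tissues.

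The 3 PiZ arrays were not alike, and this bears on every result below. This array reads Gapdh and beta-actin, used as controls, separately near their 3′ and 5′ ends, and a large difference is a known sign of shortened RNA. The mean log2 difference was 2.20, 2.70 and 2.30 in wild-type replicates 1 to 3, 2.50 in PiZ replicate 1, 4.64 in PiZ replicate 2 and 4.33 in PiZ replicate 3. PiZ replicate 1 thus read like wild-type on this measure and the other PiZ arrays did not. The samples read as liver, since 9 measured hepatocyte markers had a median level of 14.13. Their summed linear intensities were 177905 to 180399 in wild-type and 150681 to 172784 in PiZ, lower with no overlap, with a median log2 change of -0.19 (1 rose and 1 fell by the test). Of the T and NK cell, erythroid, cholangiocyte and stellate markers 0 passed the test. Of 7 endothelial markers 1 rose, and of 9 markers of proliferating cells 1 rose. Of 10 macrophage markers 3 rose, with summed linear intensities of 8529 to 8926 in wild-type and 9741 to 11606 in PiZ. The median change of the macrophage markers was 0.07, against 0.08 over all genes, of which 11.3% rose. Of 6 neutrophil markers 2 rose (148 to 207 against 523 to 719), and of 6 B cell markers 2 rose (295 to 313 against 600.2 to 1868). These intensities hold no value of 0, so a marker at 0 cannot be told. Their part in the ribosomal protein values was not tested, and fewer cells of a type and less RNA per cell cannot be told apart in whole liver.

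Most ribosomal protein genes did not pass the test between PiZ and wild-type liver. In limma with Benjamini-Hochberg adjustment over all genes, 7 of 48 members (14.6%) had an adjusted p below 0.05, where 23.6% of all genes did. Of these 5 rose (11.3% of all genes rose) and 2 fell (12.3% of all genes fell). The members that rose were Rpl27a and Rpl13a of the large subunit, Rpsa and Rps15 of the small subunit, and the paralog Rpl7l1. Both members that fell, Rpl22l1 and Rps4l, were paralogs. The median change (PiZ minus wild-type, log2) was -0.06 over the members and 0.08 over all genes. The sign of the member median turned under other scalings, to 0.01 after cyclic loess and to 0.04 after centring on reference genes, which moved the median of all genes to 0.18. The groups did not overlap for 11 members that were higher in PiZ (24.9% of all genes) and for 6 that were lower (19.9% of all genes), 17 in all (35.4%, against 44.8% of all genes).

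These counts depended on single arrays. Without PiZ replicate 1 they became 11 higher and 20 lower (64.6% of members, against 49.8% of all genes). Without PiZ replicate 2, Rps15 alone was higher and Rps4l alone lower (4.17% of members, against 14.4% of all genes). Without PiZ replicate 3, and likewise without any 1 of the wild-type arrays, limma called 0 members higher and only Rps4l lower. That was 2.08% of members in each of these fits, where the share over all genes also dropped, to 8.62% to 11.6%. In the same fits 5 to 7 members were higher at an unadjusted p below 0.05. With the 3′ to 5′ difference of the controls as a covariate, Rpl4, Rpl41, Rplp0 and Rplp2 were called higher and Rps4l lower. These were 10.4% of members, against 14.6% of all genes. Within groups this covariate differs mainly between PiZ replicate 1 and the other PiZ arrays. The fit therefore rests largely on PiZ replicate 1 and is no separate check from that array alone. In that fit 22 of 48 members turned sign, among them Rps9 (0.16), Rpl8 (0.19), Rps26 (0.08), Rpl6 (0.06), Rps3a1 and Rps4x (0.05 each). Of the 7 changed members, all kept their direction under the 17 alternatives wherever they were measured, and only Rps4l passed in all 17.

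**Figure D1:**
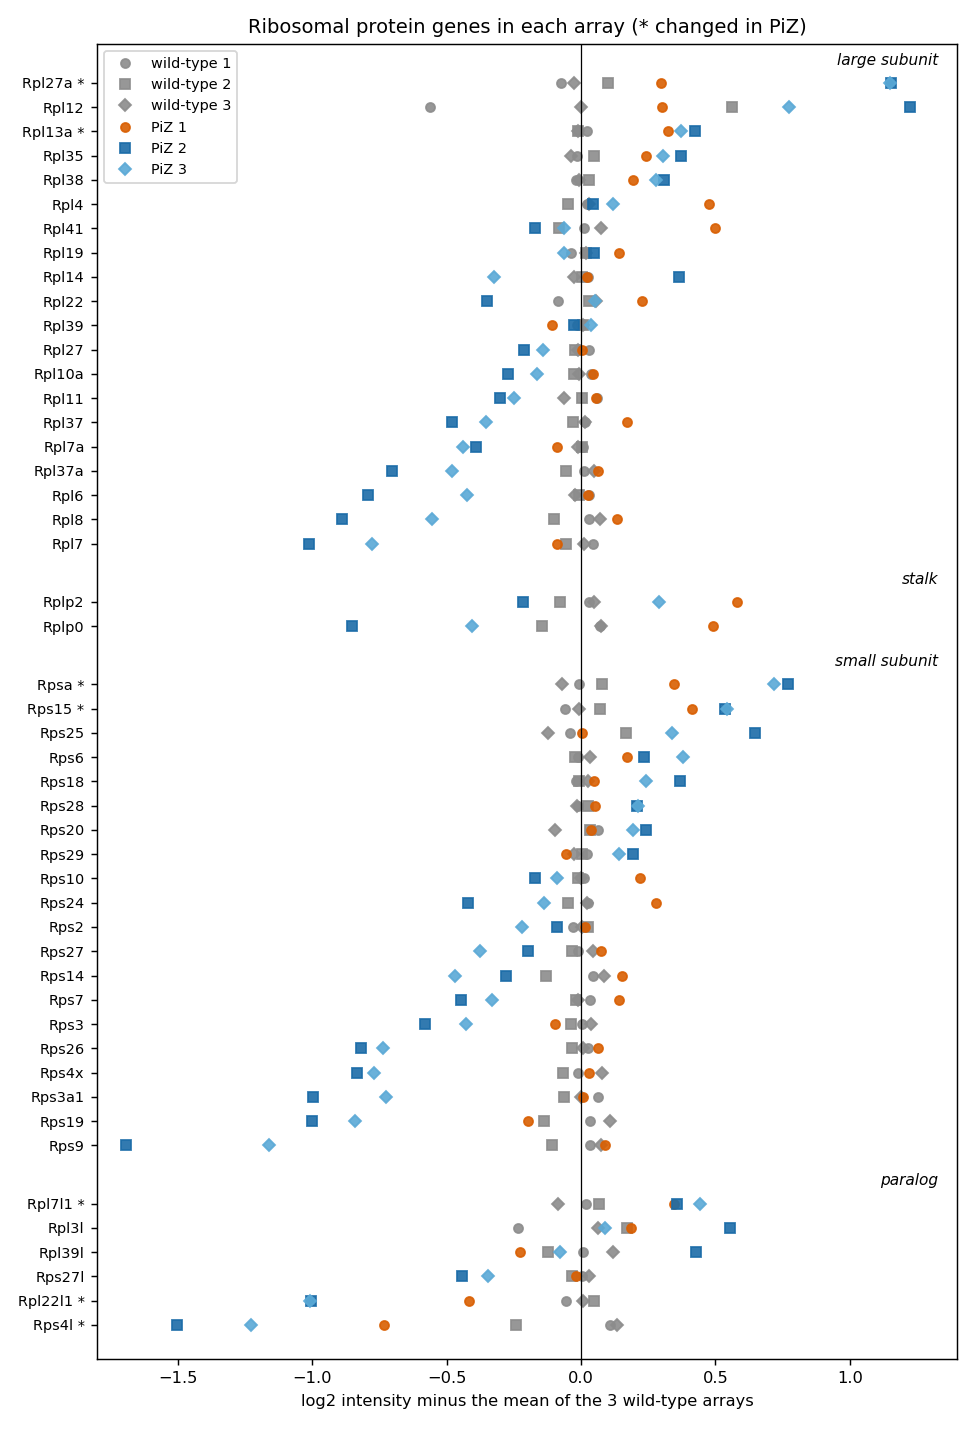
Each row is a ribosomal protein gene and each point an array, as log2 intensity minus the mean of the wild-type arrays, sorted within the large subunit, the stalk, the small subunit and the paralogs; a star marks the 7 genes that changed. Wild-type points (grey) mostly lie close to 0, with wider spreads in Rpl12, Rps4l and Rpl3l, PiZ replicates 2 and 3 (blue) spread from -1.69 to 1.22, and PiZ replicate 1 (orange) lies between -0.73 and 0.58.

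In the large subunit 2 of 20 members rose and 0 fell in limma (10%, against 23.6% of all genes), and the median change was -0.03. At an unadjusted limma p below 0.05, 2 were lower, as were 2365 of all 12393 genes. Rpl27a had the largest rise of the members. It read 8.87, 9.05 and 8.92 in wild-type and 9.24, 10.10 and 10.10 in PiZ, a 1.82-fold difference (0.87 on the log2 scale, SE 0.23, limma adjusted p = 0.0332). All PiZ arrays lay above all wild-type arrays, PiZ replicate 1 by the least. With the 3′ to 5′ covariate the difference was 0.27 (limma adjusted p = 0.175). A brighter probe set, annotated to 5 genes including Rpl27a, read -0.05 (SE 0.10). Rpl13a, also known as a member of a complex that silences inflammatory mRNAs and as a reference gene in PCR, read 13.39, 13.36 and 13.36 in wild-type. It read 13.70, 13.80 and 13.74 in PiZ, a rise of 0.37 (SE 0.10, limma adjusted p = 0.0321, 1.30-fold) with no overlap. In limma over probe sets, 3 of the 4 bright single-gene probe sets of Rpl13a were called higher, the further ones by 0.62 (SE 0.11) and 0.53 (SE 0.10). The remaining one read -0.08 (SE 0.15) and its groups overlapped.

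The other members of the large subunit lay between -0.63 and 0.77, the highest being Rpl12, whose probe set was dim and whose groups overlapped (SE 0.32, limma adjusted p = 0.115). Brighter probe sets that Rpl12 shares with other genes read -0.38 (SE 0.15, lower in every PiZ array) and 0.17 (SE 0.13). Rpl35, near the exit of the peptide tunnel, and Rpl38, known for its part in translating Hox mRNAs, were higher in every PiZ array without passing. Rpl35 differed by 0.31 (SE 0.10, limma adjusted p = 0.0636) and Rpl38 by 0.26 (SE 0.10, adjusted p = 0.0929). The 5 bright single-gene probe sets of Rpl35 ran from -0.33 (SE 0.17) to 0.33 (SE 0.10), and only the lowest was negative. Rpl4 differed by 0.21 and Rpl41, the smallest ribosomal protein, by 0.09. Both stood highest in PiZ replicate 1, at 13.10 and 13.36 against wild-type means of 12.63 and 12.87. Against wild-type, PiZ replicate 1 alone gave a higher call for Rpl4 (0.47, SE 0.11, limma adjusted p = 0.0307) and Rpl41 (0.50, SE 0.12, adjusted p = 0.0328), assuming that this lone array varies like wild-type. Rpl19, another common reference gene, differed by 0.04 (SE 0.11). It read 12.70, 12.75 and 12.75 in wild-type and 12.87, 12.78 and 12.67 in PiZ, and its sign turned without PiZ replicate 1.

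Toward the lower end stood Rpl7, Rpl8, Rpl6, Rpl37a and Rpl7a. Rpl7, a binder of RNA on the large subunit, read 12.67, 12.57 and 12.64 in wild-type and 12.54, 11.61 and 11.85 in PiZ (-0.63, SE 0.22, limma adjusted p = 0.0769). All PiZ arrays were below wild-type, but PiZ replicate 1 by a few hundredths only. Rpl8, which sits close to the catalytic centre, read 12.11, 11.09 and 11.42 in PiZ around a wild-type mean of 11.98, so that PiZ replicate 1 lay above and the others below. Rpl6 (-0.40), Rpl37a (-0.37) and Rpl7a (-0.31) likewise had PiZ replicate 1 nearest to wild-type. Rpl11, which together with Rpl5 binds and restrains Mdm2 when ribosome assembly fails, differed by -0.17 (SE 0.13, adjusted p = 0.357). Its sign turned in PiZ replicate 1 alone (0.05). Rpl5 was read only by probe sets shared with a pseudogene, of which 1 of 3 fell by 1.01 (SE 0.27, limma adjusted p = 0.039 over probe sets) and the brightest differed by -0.65 (SE 0.30).

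Neither measured stalk protein passed the test. Rplp0, the base of the stalk and, as 36B4, a reference gene in PCR, had one of the widest spreads among PiZ arrays. It read 12.31, 12.09 and 12.31 in wild-type and 12.73, 11.39 and 11.83 in PiZ (-0.26, SE 0.31, limma adjusted p = 0.555). PiZ replicate 1 was above and replicates 2 and 3 below all wild-type arrays. Rplp0 was therefore lower without PiZ replicate 1 (-0.63) and higher with the 3′ to 5′ covariate (0.57, SE 0.14, adjusted p = 0.0384). Rplp2, which pairs with Rplp1 on that base, read 12.60, 12.49 and 12.62 in wild-type and 13.15, 12.35 and 12.86 in PiZ (0.22, SE 0.20, adjusted p = 0.429). In PiZ replicate 1 alone it was called higher (0.58, SE 0.11, limma adjusted p = 0.0197). Rplp1 had only a shared probe set, which differed by 0.02 (SE 0.14).

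In the small subunit 2 of 20 members rose and 0 fell in limma (10%, against 23.6% of all genes), and the median change was -0.10. At an unadjusted limma p below 0.05, 5 were lower, as were 2365 of all 12393 genes. Rpsa, at first described as a laminin receptor, read 13.00, 13.09 and 12.94 in wild-type and 13.35, 13.78 and 13.73 in PiZ. The groups did not overlap, and the rise of 0.61 (SE 0.14, limma adjusted p = 0.0202) was 1.53-fold, but 0.32 (adjusted p = 0.103) with the 3′ to 5′ covariate. Rps15, close to the decoding site, read 12.43, 12.56 and 12.48 in wild-type and 12.90, 13.02 and 13.03 in PiZ. It rose by 0.50 (SE 0.10, adjusted p = 0.015, 1.41-fold), and here the SD among PiZ arrays was 0.07. Its second bright probe set differed by 0.13 (SE 0.10).

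The remaining small subunit genes lay between -0.92 and 0.33. Rps6, the target of the S6 kinases downstream of mTORC1, read 8.97, 8.95 and 9.01 in wild-type and 9.15, 9.21 and 9.35 in PiZ (0.26, SE 0.11, limma adjusted p = 0.108). The PiZ arrays were all higher in this probe set, while the bright probe sets that Rps6 shares with a pseudogene differed by -0.13 to 0.06. Rps18, a reference gene, differed by 0.22 (SE 0.12), Rps28 by 0.16 and Rps29 by 0.09. Rps10 and Rps20, which are ubiquitinated on collided ribosomes, differed by -0.01 (SE 0.13) and 0.16 (SE 0.11).

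Rps9 had the lowest mean change of the small subunit and the widest spread. It read 12.01, 11.87 and 12.05 in wild-type and 12.06, 10.28 and 10.81 in PiZ (-0.92, SE 0.40, limma adjusted p = 0.125). PiZ replicate 1 stood above every wild-type array, and the difference rests on the other PiZ arrays. Rps19, the gene most often mutated in Diamond-Blackfan anaemia, read 11.996, 11.82 and 12.07 in wild-type and 11.77, 10.96 and 11.12 in PiZ. All its PiZ arrays were lower, and it just missed the threshold (-0.68, SE 0.21, adjusted p = 0.0511). Rps3, at the mRNA entry channel, was lower in all PiZ arrays as well (-0.37, SE 0.14, adjusted p = 0.0946). Rps3a1 (-0.57), Rps4x (-0.52) and Rps26 (-0.50) were lower in PiZ replicates 2 and 3 and within or above the wild-type range in PiZ replicate 1.

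Of the paralogs 3 of 6 changed (50%, against 23.6% of all genes), and 5 of 8 planned pairs of a paralog and its parent gene had a probe set for each. Rps4l, a relative of the small subunit protein gene Rps4x, had the largest change of all members. It read 9.10, 8.75 and 9.13 in wild-type and 8.26, 7.49 and 7.76 in PiZ, a 2.23-fold fall (-1.16, SE 0.21, limma adjusted p = 0.00917). Its groups did not overlap, and PiZ replicate 1 alone also gave a lower call (-0.73, SE 0.17, adjusted p = 0.0338). Rpl22l1, whose message is known to be repressed by its parent protein Rpl22, read 11.80, 11.90 and 11.86 in wild-type. It read 11.44, 10.85 and 10.85 in PiZ and fell by 0.81 (SE 0.17, adjusted p = 0.0158, 1.75-fold), and by 0.42 (SE 0.11, adjusted p = 0.0465) in PiZ replicate 1 alone. With the 3′ to 5′ covariate Rps4l stood at -0.65 (limma adjusted p = 0.0269) and Rpl22l1 at -0.43 (adjusted p = 0.0809). Rpl7l1, a relative of Rpl7, read 8.61, 8.66 and 8.51 in wild-type and 8.94, 8.95 and 9.04 in PiZ. It rose by 0.38 (SE 0.10, adjusted p = 0.0352, 1.30-fold), but a second probe set of almost the same level read -0.18 (SE 0.16).

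The parent genes did not pass. Rpl22 read 10.69, 10.80 and 10.83 in wild-type and 10.999, 10.42 and 10.82 in PiZ (-0.02, SE 0.16), a sign that turned after cyclic loess (0.10). A dimmer single-gene probe set of Rpl22 (mean level 8.03) read -0.71 (SE 0.30). The mean of its probe sets gave -0.37 (SE 0.22), so an unchanged Rpl22 cannot be read from these values. Rps4x was within the wild-type range in PiZ replicate 1 and lower in the others. The change of Rpl22l1 minus that of Rpl22 was -0.79, and in single PiZ arrays -0.65, -0.65 and -1.06 relative to the wild-type mean. For Rps4l minus Rps4x the difference was -0.63 (-0.76, -0.67 and -0.46), and for Rpl7l1 minus Rpl7 it was 1.01 (0.44, 1.37 and 1.22). For these 3 pairs every PiZ array lay on the same side of every wild-type array. This gives p = 0.1 in a two-sided exact permutation test, the smallest that 3 against 3 allows (0.167 adjusted over 5 pairs). The pair differences hold for the brightest probe set of each gene only. The other probe sets of Rpl22 (-0.71) and Rpl7l1 (-0.18) were not tested in pairs. Rps27l, a paralog of Rps27 that p53 is known to induce, read 12.59, 12.56 and 12.62 in wild-type and 12.57, 12.15 and 12.25 in PiZ (-0.27, SE 0.13, limma adjusted p = 0.173). Over the same arrays the p53 target Cdkn1a (p21) rose by 3.62 (SE 0.14). The difference between Rps27l and Rps27 was -0.10 (exact permutation p = 0.4) and that between Rpl39l and Rpl39 was 0.07 (exact permutation p = 0.8), and both signs turned with the scaling. The single probe set of Rps27 was dim, at 6.40 in wild-type, and a bright one shared with a near copy differed by 0.54 (SE 0.19). That of Rpl39 was dim too, at 6.34 in wild-type, and a bright one shared with another gene differed by 0.05 (SE 0.10). Rpl3l, a paralog of heart and skeletal muscle, and Rpl39l, one of testis, were dim throughout, at 4.57 and 3.69 in wild-type.

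**Figure D2:**
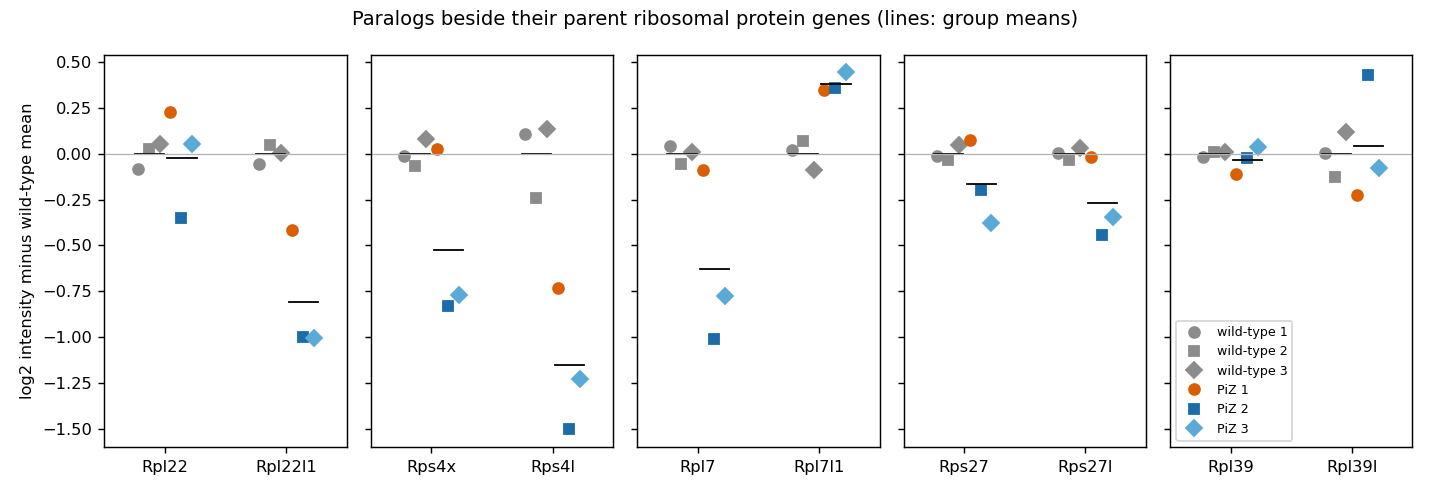
Each panel sets a paralog (right) beside its parent gene (left), with 1 point per array as log2 intensity minus the wild-type mean and a line for each group mean. Rpl22l1 and Rps4l lie below 0 in all PiZ arrays, Rpl7l1 lies above 0 in all of them, and in PiZ replicate 1 the parent genes Rpl22, Rps4x and Rpl7 lie at 0.23, 0.03 and -0.09.

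The members spread more between PiZ mice than between wild-type mice. The median SD over members was 0.05 in wild-type and 0.27 in PiZ, against 0.10 and 0.21 over all genes. In PiZ replicate 1, 28 members lay above all wild-type arrays and 9 below (38.0% and 35.6% of all genes did), with a median of 0.07 relative to the wild-type mean. In PiZ replicate 2 the counts were 19 and 29 (50.2% and 34.2% of all genes), with a median of -0.20. In PiZ replicate 3 they were 17 and 27 (49.6% and 33.9% of all genes), with a median of -0.14. Over all genes these medians were 0.01, 0.10 and 0.09, so the members lay on the other side of 0 from all genes in PiZ replicates 2 and 3. In 12 members PiZ replicate 1 was above and both others below every wild-type array (25% of members, against 3.36% of all genes). They were Rpl8, Rpl10a, Rpl37, Rpl37a and Rplp0 on the large side and Rps7, Rps9, Rps10, Rps14, Rps24, Rps26 and Rps27 on the small side. Another 11 were above wild-type in all PiZ arrays and 6 were below in all, the counts without overlap given above. The 3′ to 5′ difference of the controls was high in those same PiZ replicates 2 and 3. Its part in the lower values was not tested beyond the fit with it as a covariate and the values of PiZ replicate 1 alone. These are not separate checks, since the covariate fit rests largely on PiZ replicate 1.

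**Figure D3:**
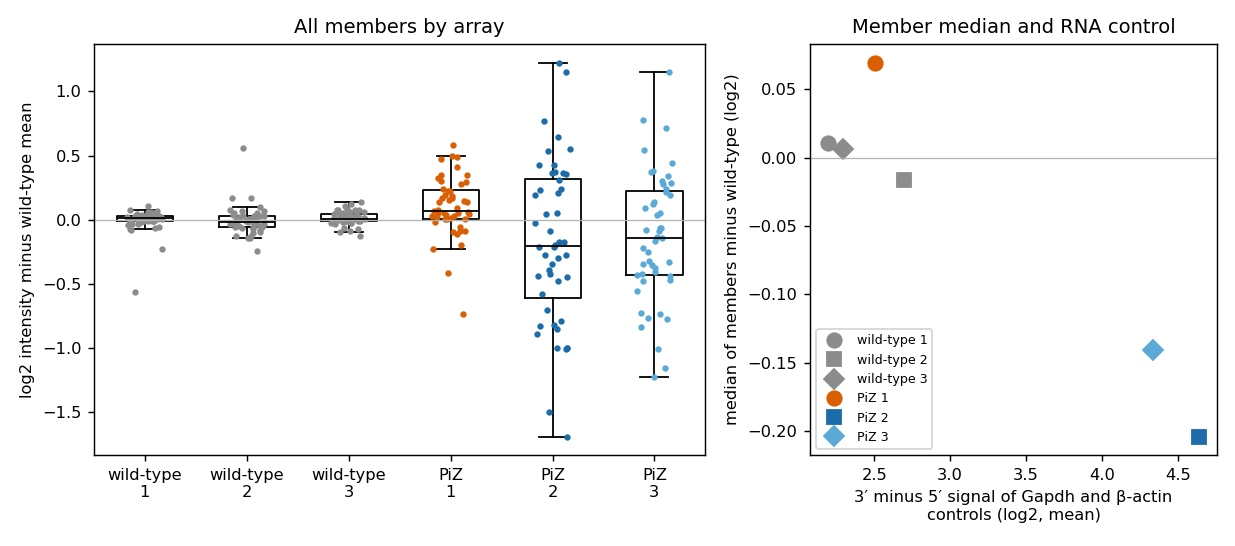
On the left, each point is 1 of the 48 members in 1 array, as log2 intensity minus the wild-type mean, with boxes for the quartiles, a line for the median and whiskers to the farthest point within 1.5 box lengths; on the right, the member median of each array is set against the mean 3′ minus 5′ difference of the control transcripts. PiZ replicate 1 has a median of 0.07 at a difference of 2.50, and PiZ replicates 2 and 3 have medians of -0.20 and -0.14 at 4.64 and 4.33.

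Probe sets of the same gene often disagreed. Of 23 members with several single-gene probe sets, 17 had at least 2 bright ones (a mean log2 level of 9 or more), and in 7 of these the bright ones differed in sign: Rpl13a, Rpl27, Rpl35, Rpl37a, Rps10, Rps14 and Rps18. Rps10 ran from -0.76 to 0.36, Rps18 from -0.68 to 0.22 and Rps9 from -0.92 to -0.06. Rps28, Rps29 and Rps27l, by contrast, had bright probe sets within 0.09 of each other. The ending of an Affymetrix identifier tells how far its probes are shared with other transcripts. Bright probe sets ending in _a_at were negative in 20 of 27 cases, with a median of -0.31, and those ending in _x_at in 14 of 35, with a median of 0.11. Where the probes lie along each transcript was not analysed here.

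**Figure D4:**
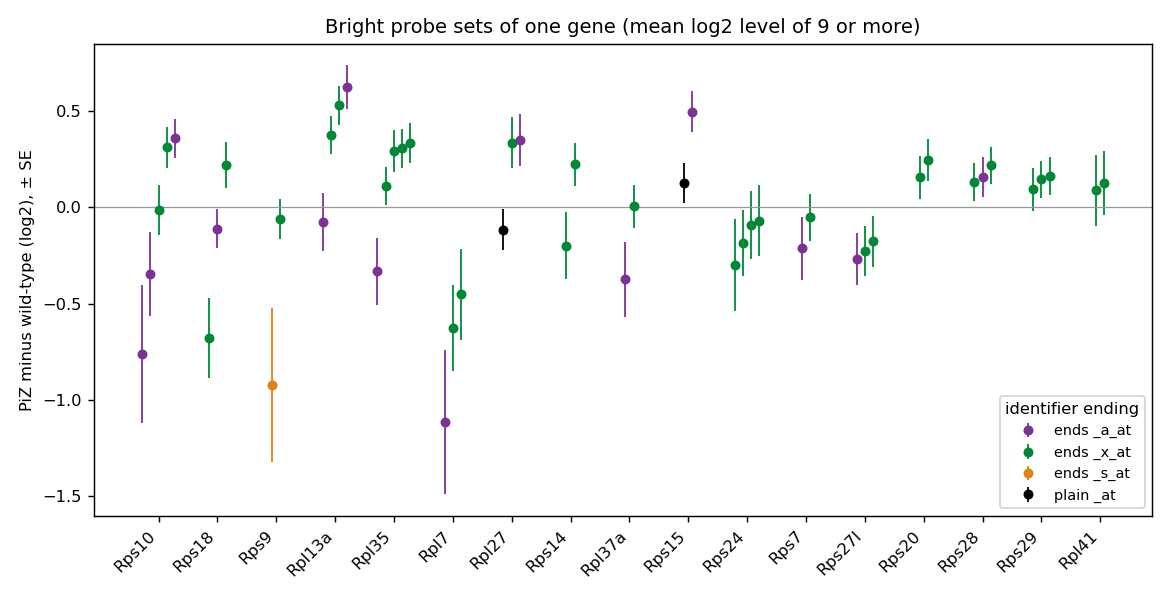
For each of the 17 members with at least 2 bright single-gene probe sets, each point is a probe set's change (PiZ minus wild-type, log2) with its SE, coloured by the ending of its identifier. The bright probe sets of Rps10 run from -0.76 to 0.36, and those of Rps28 and Rps29 lie close together just above 0.

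Among all 100 single-gene probe sets of the members, 8 were called higher and 2 lower, where limma over probe sets called 19.1% of all. A further 102 probe sets paired ribosomal protein genes with other genes or pseudogenes. Of these 10 were called higher and 1 lower (10.8%), with a median change of -0.03. All 4 probe sets of Rpl14 that end in _x_at were among the higher ones (0.54 to 0.58), and the remaining one shared with its pseudogene read -0.53 (SE 0.29). The single-gene probe set of Rpl14 was dim and read 0.02 (SE 0.17). Such families have many near-identical copies, so that a probe set can hold the signal of more than 1 transcript.

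The start sites of the changed genes are shown because a pyrimidine tract there marks the mRNAs that mTORC1 controls as a class. The RefSeq table (GRCm38.p6) held 42 of the 48 members and 6 of the 7 changed ones, and Rps4l had no entry. Each line runs 5′ to 3′ from 40 bases before to 20 after the annotated start, with capitals for the longest run of C or T within 20 bases of it.
Rpl27a, chr7:109519155-109519214, plus strand: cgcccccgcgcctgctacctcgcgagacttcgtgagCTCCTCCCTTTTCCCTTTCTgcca
Rpl13a, chr7:45128726-45128785, minus strand: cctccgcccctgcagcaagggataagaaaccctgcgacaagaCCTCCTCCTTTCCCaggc
Rpl22l1, chr3:28805468-28805527, plus strand: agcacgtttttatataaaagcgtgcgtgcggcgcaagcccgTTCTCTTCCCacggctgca
Rps15, chr10:80292391-80292450, plus strand: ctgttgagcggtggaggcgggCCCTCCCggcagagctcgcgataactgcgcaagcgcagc
Rpsa, chr9:120127726-120127785, plus strand: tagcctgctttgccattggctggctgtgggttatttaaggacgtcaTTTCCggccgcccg
Rpl7l1, chr17:46782637-46782696, minus strand: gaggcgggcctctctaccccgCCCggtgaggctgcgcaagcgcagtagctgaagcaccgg

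The runs were 20 bases long in Rpl27a, 14 in Rpl13a, 10 in Rpl22l1, 7 in Rps15, 5 in Rpsa and 3 in Rpl7l1. Those of Rps15 and Rpl7l1 lie wholly before the annotated start, outside the annotated mRNA. A run of 8 or more within that distance was found in 20 of 42 members (47.6%) and in 19.4% of the 9887 measured genes with an entry, and 3 of the 6 changed genes held one. A C at the annotated base with at least 4 pyrimidines after it was found in 8 members (19.0%, against 3.03% of those genes) and in 0 of the 6. Annotated starts can lie some bases from the used ones, so these are matches of letters only. The motif CCGGAAG, a core of ETS factor sites, searched on both strands over the whole 300 bases, was found in 21 members (50%) and 16.3% of the measured genes (9.93% of the whole table). AAGATGG, a core of YY1 sites, was found in 7 members (16.7%) and 7.86% of the measured genes, and the motifs can overlap in the letters AAG.

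Other genes of the ribosome and of its making moved both ways. Of 91 measured genes of ribosome biogenesis 13 rose and 11 fell (26.4%, against 23.6% of all genes), and the median was 0.07. Rrn3, which brings RNA polymerase I to the ribosomal genes, fell by 1.32 (SE 0.17, limma adjusted p = 0.00266). The assembly factor Rrs1 fell by 1.20 (SE 0.32), and Ppan, a factor of large subunit maturation, rose by 1.09 (SE 0.23). Without PiZ replicate 1 the counts of this list were 35 and 25 (65.9%, against 49.8% of all genes), and in that array alone 10 and 6 (17.6%, against 18.6%). Among ribosome partners that the symbol rule leaves out, 1 of 6 fell (16.7%), the nascent chain binder Naca (-0.63, SE 0.18). Fau, made as a fusion of a ubiquitin-like protein with a small subunit protein, differed by 0.11 (SE 0.11). Rps27a had no single-gene probe set here.

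Of 20 other mRNAs known for a pyrimidine tract at their start, 0 rose and 3 fell (15%, against 23.6% of all genes), and the median was -0.17. The members that fell were the nucleolar protein Npm1 (-1.09, SE 0.23), Naca and the initiation factor Eif4b (-0.41, SE 0.10). In limma 1 member was higher at an unadjusted p below 0.05, as were 2596 of all 12393 genes. By array the list's median was -0.02, -0.26 and -0.18 for PiZ replicates 1 to 3. Of 31 genes of mTORC1 signalling and of the control of ribosomal protein mRNAs, 4 rose and 3 fell (22.6%, near the 23.6% of all genes). Ddit4, an inhibitor of mTORC1, read 7.35, 7.21 and 7.11 in wild-type and 12.04, 11.64 and 11.01 in PiZ (4.34, SE 0.24, limma adjusted p = 9.69e-05). Sesn2, another inhibitor, rose by 1.20 (SE 0.19), and Pdcd4, which restrains initiation and is removed after S6 kinase acts, fell by 1.27 (SE 0.22). Of 19 genes of ribosome quality control and nucleolar stress 4 rose and 2 fell (31.6%, against 23.6% of all genes). Besides Cdkn1a, Gtpbp2, a rescuer of stalled ribosomes, rose by 1.35 (SE 0.19), and Map3k20 (ZAK), a kinase that senses collided ribosomes, fell by 0.63 (SE 0.10).

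The mitochondrial ribosome has its own set of proteins, and these are described beside the members. Of 74 measured mitochondrial ribosomal protein genes 5 rose and 8 fell (17.6%, against 23.6% of all genes), and the median was -0.10, but 0.04 with the 3′ to 5′ covariate. Without PiZ replicate 1 the counts were 10 and 32 (56.8%, against 49.8% of all genes). The median was 0.03 in PiZ replicate 1, -0.33 in PiZ replicate 2 and -0.17 in PiZ replicate 3, the same order of arrays as for the cytosolic members. The lower ones included Mrpl9 (-1.28, SE 0.32), Mrpl14 (-1.18, SE 0.26) and Mrpl49 (-1.12, SE 0.12). A difference between the cytosolic and the mitochondrial proteins was not tested.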

How the data were processed

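For every probe set the authors deposited 1 log2 intensity per array; the submitters' processing notes name affy and RMA. RMA makes the distributions of all arrays alike, which would hide a shift of most genes. No version or filter is stated. Values ran from 2.3 to 14.98, the range of a log2 scale. The files hold no detection calls, most members read close to the top of the range, where saturation can compress differences, and the number of arrays limits the precision.

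Of 22690 probe sets 20380 named 1 gene in the platform annotation, giving 12393 genes. The groups (n = 3 each) were set against each other by limma 3.58.1 (lmFit and eBayes, two-sided; R 4.3.3) over all genes, with a threshold of 0.05 after Benjamini-Hochberg adjustment. The fit was tested on simulated data. The labels call the samples biological replicates. Members, lists and tests were chosen with earlier results of these data known. Named genes were all changed members, the paralog pairs, a fixed set of reference, stalk and fusion protein genes and up to 3 changed genes per list. Other genes, Rpl35, Rpl38, Rps9, Rps19 among them, and the sequence motifs were chosen after their values were seen. Alternatives changed the probe sets, filter, scaling, variance model, array weights, block, covariate and arrays. Python 3.11.15 drew the figures.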

Additional observations from a re-analysis of the deposited data

How the results depend on the processing

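Limits first: 3 arrays a group, the high 3′ to 5′ difference of PiZ replicates 2 and 3, and probe sets shared with near-identical copies bound what the member counts can show. Of the alternatives, the mean of all probe sets, the filter on dim genes, both further normalizations (cyclic loess, quantile), centring on 7 reference genes and the trend and robust model gave 4 to 7 members higher and 2 or 3 lower. The share called was 14.6% to 18.8% of members, against 22.0% to 30.7% of all genes, and was lower for the members in each of these fits.

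Restricting genes to plain _at probe sets left 24 members, with 3 higher, 2 lower (20.8%, near the 21.9% of all genes) and a median of 0.073. The lower ones were Rps4l and Rps20, the latter by a dim probe set (mean level 4.71), while the bright probe sets of Rps20 read 0.16 and 0.25. The median was 0.039 after centring on reference genes. Array weights gave 11 higher and 19 lower members, and 3641 higher and 2879 lower genes over all. The labels do not say whether the replicate numbers pair the samples. Deviations of same-numbered arrays correlated at 0.26, 0.29 and -0.03. For wild-type replicates 1 and 2 the PiZ array of the same number correlated best, so pairing cannot be told. With the number as a replicate block 4 members were higher and 4 lower (16.7%, against 26.0% of all genes). The 3′ to 5′ covariate gave 1 lower member, a member median of 0.089, and 867 higher and 947 lower genes. PiZ replicate 1 alone gave a member median of 0.069, against 0.011 over all genes. Leaving out 1 array at a time gave 0 to 11 members higher and 1 to 20 lower, and 518 to 3397 genes higher and 550 to 2778 lower. The cause of these moves was not tested, except that fewer arrays leave fewer degrees of freedom.

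Of the 48 members 22 turned sign under the 3′ to 5′ covariate and 21 in PiZ replicate 1 alone, settings that both rest largely on PiZ replicate 1. No setting among the others turned more than 8. After cyclic loess Rpl22 read 0.10, Rpl39l -0.11 and Rps27l minus Rps27 0.11. After a further quantile normalization Rpl22 read 0.049, Rpl39l -0.10, Rps27l minus Rps27 0.086 and Rpl39l minus Rpl39 -0.034. Centring on reference genes gave 0.079 for Rpl22 and 0.070 for Rpl39, and array weights 0.015 for Rpl39 and -0.027 for Rpl19. The covariate gave 0.068 for Rps27, 0.25 for Rpl22, -0.24 for Rpl39l, 0.051 for Rps4x, 0.57 for Rplp0 and 0.063 for Rpl11. PiZ replicate 1 alone gave 0.074 for Rps27, 0.23 for Rpl22, -0.23 for Rpl39l, 0.029 for Rps4x, 0.49 for Rplp0 and 0.054 for Rpl11. With 1 array left out, Rpl22 ranged from -0.15 to 0.14, Rpl39l from -0.15 to 0.18, Rpl39 from -0.067 to 0.0064, Rpl19 from -0.0068 to 0.094, Rplp0 from -0.63 to 0.043 and Rpl39l minus Rpl39 from -0.12 to 0.17.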
